A study of Homo sapiens with 6 samples.

Results

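The RAB proteins are the largest branch of the RAS superfamily of small GTPases and direct membrane traffic between organelles. The transcripts described here are those of 42 RAB genes, chosen by name and grouped by a compartment where their proteins act, though some act in others too. All 42 were found, by Ensembl identifier, among the 57905 genes of the deposited table. RNA was measured in A549, an established human lung adenocarcinoma line, in 3 samples transfected with miR-19a and 3 samples transfected with the control microRNA, miR-NC. Both microRNAs were given at 25 nM with a Lipofectamine reagent, and 24 h is the harvest time in the labels, so both groups carry a transfected small RNA. The comparison asks which RAB transcripts miR-19a-transfected cells hold at a level other than that of miR-NC-transfected cells.

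A RAB is active when bound to GTP and inactive when bound to GDP. Exchange factors load GTP, GTPase-activating proteins with a TBC domain end the active state, and effectors such as tethers and motor adaptors bind the active form. A prenyl anchor, added with the help of escort proteins, holds a RAB on its membrane, and each compartment has its own set. A microRNA such as miR-19a binds messenger RNAs through its seed, the bases near its 5′ end, usually in the 3′ untranslated region (3′ UTR), and lowers their amount or translation.

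Paired reads had been counted per gene by the authors, and each library held between 15699037 and 17957932 counts. Levels are the authors' deposited FPKM, fragments scaled by gene length and library total, which allow comparison between genes. A log2 fold change is miR-19a over miR-NC from edgeR's quasi-likelihood test on the deposited counts, with its standard error (SE), and the adjusted p is by Benjamini-Hochberg over the 12452 genes with a mean of at least 1 FPKM. A gene is said to rise or fall where that adjusted p is under 0.05. Values after ± are SDs over the 3 samples of a group. Whether a group's samples were separate cultures is not stated in the labels, so the p-values reflect spread among samples that may be technical only.

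Of the A549 enzymes, 4 of 4 markers reached 1 FPKM, with summed levels of 3610 to 3630 FPKM in miR-19a and 4320 to 4380 FPKM in miR-NC. Of the epithelial markers 5 of 6 did, with EPCAM below 1 FPKM. None of 6 alveolar type II markers did, at summed levels of 0.43 to 0.44 FPKM in miR-19a and 0.40 to 0.54 FPKM in miR-NC. Among markers of other cell types, COL1A1 reached 1 FPKM of 6 fibroblast genes, whose sum lay between 2.49 and 3.0 FPKM in miR-19a and between 0.89 and 1.07 FPKM in miR-NC. None of 5 leukocyte genes and none of 2 endothelial genes did, and CD3E was at 0. The part of these markers in the results was not tested. In such bulk RNA, fewer cells with a transcript and less transcript per cell cannot be told apart.

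The seed of miR-19a and its matches in the RAB 3′ UTRs are shown because the largest changes among the 42 RABs were in genes that hold such a match. The mature strand, miR-19a-3p, comes from the RefSeq table on GRCh38.p14 (chr13:91350939-91350961, plus strand), with the seed, bases 2 to 8, in capitals.
miR-19a-3p: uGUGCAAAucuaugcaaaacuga
Matches were searched on the sense strand of GENCODE v29 transcripts (GRCh38), using per gene the transcript with the longest coding sequence. A 6mer site is TTGCAC. With a further T before it, TTTGCAC, it is a 7mer-m8, with an A after it, TTGCACA, a 7mer-A1, and with both, TTTGCACA, an 8mer. Each match was counted once, in its longest class, and a site below means a match in the 3′ UTR. Matches of 7 nt or more in the coding sequence, which were not classed, were found in 5 of the 42 RABs: RAB2A, RAB5C, RAB12, RAB18 and RAB34. The sites below lie in the last exon of their gene, in the 3′ UTR, and are given in the transcript's direction with the match in capitals. The first group is the 8mers, from the gene that fell most to the gene that rose.
RAB18: tgctattttagggaccttgcagTTTGCACA
RAB8B, nearer site: agcggttatctttcttttttacTTTGCACA
RAB8B, farther site: tcagcacaatcttagactcataTTTGCACA
RAB13: ttcttggtattaaaggccaccaTTTGCACA
RAB21: ctgaagtactatttttgcagggTTTGCACA
RAB2B: tatttattcctagttccataccTTTGCACA
RAB33B: acttttattttgaatttaagtcTTTGCACA
RAB23: ctctctactctcctctttaattTTTGCACA
The second group is 7mer-A1 sites, in the gene of the 42 that rose most and a gene that fell by a similar amount.
RAB30: caggttctagattgaccagtgtcTTGCACA
RAB26: ttgcactcaacttggccttttgaTTGCACA

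On GRCh38 the RAB18 match is at chr10:27538144-27538151 on the plus strand. The RAB8B matches are at chr15:63263908-63263915 and chr15:63263960-63263967, both on the plus strand. RAB13 holds its match at chr1:153981653-153981660 on the minus strand, 2 nt before the end of the 448 nt 3′ UTR of the transcript used. Its longest annotated 3′ UTR, of 482 nt, extends farther past the same match. The match of RAB21 is at chr12:71786468-71786475 (plus), that of RAB2B at chr14:21459782-21459789 (minus), that of RAB33B at chr4:139474735-139474742 (plus) and that of RAB23 at chr6:57188560-57188567 (minus). The 7mer-A1 matches are at chr11:82980383-82980389 (minus) in RAB30 and at chr16:2154090-2154096 (plus) in RAB26.

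All 42 RAB genes had counts in each of the 6 libraries, the lowest being 11. Of these, 40 reached a mean of 1 FPKM and were tested, and RAB3A and RAB39B did not. Among the 40, 11 rose and 14 fell, so 25 (62.5%) passed the test, against 48.4% of all tested genes. The share that rose was 27.5%, against 24.9% of all tested genes, and the share that fell was 35%, against 23.5%. These all-gene shares also stand beside the counts by compartment and by class of regulators below. In counts scaled by edgeR to library size, the 3 values of miR-19a and the 3 of miR-NC did not overlap for 25 of the 40 (62.5%). That share was 54.0% of all tested genes. In FPKM, RAB5A and RAB9A, which are among those 25, did overlap. The median log2 fold change was 0.03, beside -0.00 for all tested genes, whose middle 50% lay between -0.19 and 0.18.

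Most of these changes were small. A log2 fold change of at least 0.5 in size, with a passed test, was seen in 5 RABs: RAB18, RAB8B, RAB26 and RAB13 fell and RAB30 rose. Of all tested genes 5.4% fell and 6.26% rose by that much. The other 20 RABs that passed changed by less. Summed over the 42 genes, RAB transcripts came to 935 ± 6.04 FPKM in miR-19a and 967 ± 5.30 FPKM in miR-NC, without overlap. An exact two-sided permutation test gave p = 0.1, the smallest p that 3 against 3 samples allow.

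**Figure D1:**
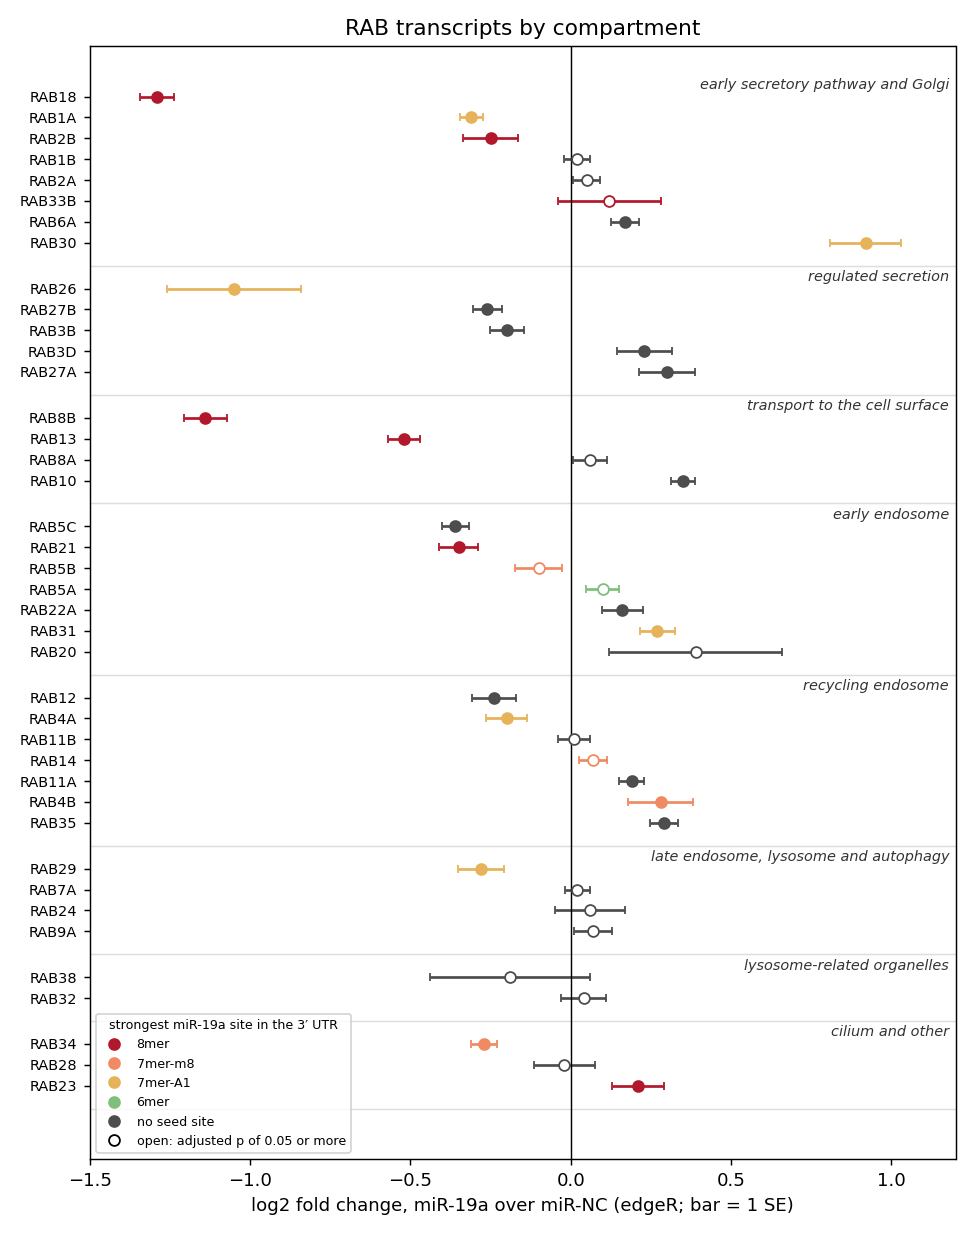
Log2 fold change (x axis, miR-19a over miR-NC, bars are SE) of the 40 tested RAB transcripts, grouped by compartment (y axis) and coloured by the strongest miR-19a site, with open points where the adjusted p was 0.05 or more. RAB18 at -1.29, RAB8B at -1.14 and RAB26 at -1.05 lie farthest to the left and RAB30 at 0.92 farthest to the right.

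Among the RABs of the early secretory pathway and Golgi, 2 of 8 rose, 3 fell and 3 did not pass. RAB18, a RAB of the endoplasmic reticulum and lipid droplets, stood at 6.67, 6.90 and 7.22 FPKM in miR-19a, against 17.2, 16.3 and 18.0 FPKM in miR-NC. The lowest miR-NC sample was above every miR-19a sample by a wide margin. RAB18 fell by 1.29 on the log2 scale (SE 0.053, adjusted p = 6.1e-32), the largest fall among the RABs tested, so its amount fell by 59.2%.

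RAB30, a Golgi RAB, was the gene of the 42 that rose most. It was measured at 1.32, 1.49 and 1.45 FPKM in miR-19a, against 0.75, 0.88 and 0.65 FPKM in miR-NC, with no overlap at these low levels. Its log2 fold change was 0.92 (SE 0.11, adjusted p = 2.7e-11), or 88.9% more transcript, and its 3′ UTR holds the 7mer-A1 site printed above. With limma the difference was 0.46 on log2(FPKM + 1) and 0.83 on log2(FPKM + 0.1), and with DESeq2 it was 0.92.

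RAB1A and RAB1B both serve transport between the endoplasmic reticulum and the Golgi. RAB1A had 100.6, 102 and 98.1 FPKM in miR-19a, against 124, 124 and 127 FPKM in miR-NC, and fell by 0.31 (SE 0.037, adjusted p = 1.3e-10). RAB1B, which holds no site, had 91.4 ± 5.17 FPKM in miR-19a and 91.3 ± 1.84 FPKM in miR-NC, and did not pass (log2 fold change 0.02, SE 0.041, adjusted p = 0.752). The paralogs, at similar abundance, thus gave different calls.

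RAB2B, a Golgi RAB, had 4.39 ± 0.175 FPKM in miR-19a and 5.27 ± 0.210 FPKM in miR-NC and fell by 0.25 (SE 0.086, adjusted p = 0.0134). That call was lost when miR-19a replicate 3 was left out (-0.22, adjusted p = 0.0573), and also when miR-NC replicate 3 was (-0.22, adjusted p = 0.0521). TOX4 overlaps RAB2B on the opposite strand with 6272 counts to its 1737, and the strand setting of the counting was not given in the sources used here. TOX4 itself had a log2 fold change of 0.06 (adjusted p = 0.405). RAB2A, its more abundant paralog, had 26.2 ± 1.40 FPKM in miR-19a and 25.5 ± 0.420 FPKM in miR-NC and did not pass (0.05, adjusted p = 0.302). RAB6A, which acts in traffic to and from the Golgi, rose by 0.17 (SE 0.043, adjusted p = 9.1e-04). RAB33B, a Golgi RAB that binds the autophagy protein ATG16L1, had 1.05 ± 0.172 FPKM in miR-19a and 0.983 ± 0.116 FPKM in miR-NC, and did not pass (0.12, SE 0.16, adjusted p = 0.58), and its 3′ UTR holds an 8mer.

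All 5 tested RABs of regulated secretion passed the test, 2 upward and 3 downward, where 48.4% of all tested genes passed. RAB27A and RAB27B both act in docking secretory vesicles and multivesicular bodies at the plasma membrane, and so in the release of extracellular vesicles. RAB27A had 3.55, 3.86 and 4.12 FPKM in miR-19a, against 2.75, 3.31 and 3.42 FPKM in miR-NC. RAB27B had 15.1, 15.8 and 14.8 FPKM in miR-19a, against 17.3, 19.6 and 18.6 FPKM in miR-NC. The groups did not overlap for either gene, and the less abundant paralog was the higher one in miR-19a.

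RAB27A rose by 0.30 (SE 0.086, adjusted p = 0.00236) and RAB27B fell by 0.26 on the log2 scale (SE 0.045, adjusted p = 1.6e-06), and neither 3′ UTR holds a site of 7 nt or more. RAB27A did not pass without miR-NC replicate 1 (0.21, adjusted p = 0.0671) nor with limma on log2(FPKM + 1) (adjusted p = 0.0554). PIGB overlaps RAB27A on the opposite strand and had a log2 fold change of -0.06 (adjusted p = 0.645). PIGBOS1 overlaps it on the same strand, with 1117 counts to the 1969 of RAB27A, and had a log2 fold change of -0.05 (adjusted p = 0.718).

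RAB26, a RAB of secretory granules, was low in all samples. It had 0.84, 0.56 and 1.07 FPKM in miR-19a, against 1.91, 1.94 and 1.36 FPKM in miR-NC, so the nearest samples of the groups were close to each other but did not overlap. It fell by 1.05 on the log2 scale (SE 0.21, adjusted p = 2.9e-05), so its amount fell by 51.9%, and its 3′ UTR holds a 7mer-A1 site. Its 316 counts over the 6 libraries make this the least precise of the 4 largest falls. With limma the difference was -0.59 on log2(FPKM + 1) and -1.01 on log2(FPKM + 0.1), and with DESeq2 it was -1.06.

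RAB3B and RAB3D are RABs of secretory vesicles. RAB3B had 4.81 ± 0.0208 FPKM in miR-19a and 5.59 ± 0.391 FPKM in miR-NC and fell by 0.20 (SE 0.053, adjusted p = 0.00101). RAB3D had 5.46, 5.46 and 4.88 FPKM in miR-19a, against 4.04, 5.4 and 4.12 FPKM in miR-NC, so its groups overlapped. Its log2 fold change of 0.23 (SE 0.086) passed at an adjusted p of 0.0193, but not with DESeq2 (adjusted p = 0.0816) or limma (adjusted p = 0.152). Leaving out miR-19a replicate 1 (0.21, adjusted p = 0.0779) or 2 (0.21, adjusted p = 0.0847) also ended that call, as did leaving out miR-NC replicate 1 (0.15, adjusted p = 0.196) or 3 (0.17, adjusted p = 0.135), whereas without miR-NC replicate 2 the value was 0.38. TMEM205 overlaps RAB3D on the same strand, with 7463 counts to its 2164, and fell by 0.16 on the log2 scale (adjusted p = 0.00615). RAB3A, the RAB of synaptic vesicles, was below the level for testing at 0.710 ± 0.223 FPKM in miR-19a and 0.577 ± 0.163 FPKM in miR-NC.

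Of the 4 RABs of transport to the cell surface, RAB8B and RAB13 fell, RAB10 rose and RAB8A did not pass. RAB8B and its paralog RAB8A act in traffic from the Golgi to the plasma membrane and the cilium. RAB8B had 4.59, 4.45 and 4.37 FPKM in miR-19a, against 9.15, 10.8 and 10.0 FPKM in miR-NC. All miR-19a samples lay far below all miR-NC samples. RAB8B fell by 1.14 on the log2 scale (SE 0.067, adjusted p = 1.1e-23), so its amount fell by 54.7%, and its 3′ UTR holds 2 8mer sites whose starts are 52 nt apart. RAB8A, which holds no site of 7 nt or more, had 13.2 ± 0.0924 FPKM in miR-19a and 12.8 ± 0.643 FPKM in miR-NC and did not pass (0.06, SE 0.052, adjusted p = 0.363).

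RAB13, a RAB of tight junctions, had 22.2, 21.5 and 21.8 FPKM in miR-19a, against 31.6, 31.7 and 31.5 FPKM in miR-NC, and fell by 0.52 (SE 0.050, adjusted p = 5.2e-14). RAB10, which acts in the insertion of the glucose transporter GLUT4 and in polarised traffic, had 161, 159 and 152 FPKM in miR-19a, against 125, 122 and 127 FPKM in miR-NC. It rose by 0.35 (SE 0.037, adjusted p = 7.9e-13) and holds no site. RAB10 was the most abundant RAB transcript in each miR-19a sample, whereas in miR-NC its samples overlapped those of RAB1A.

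**Figure D2:**
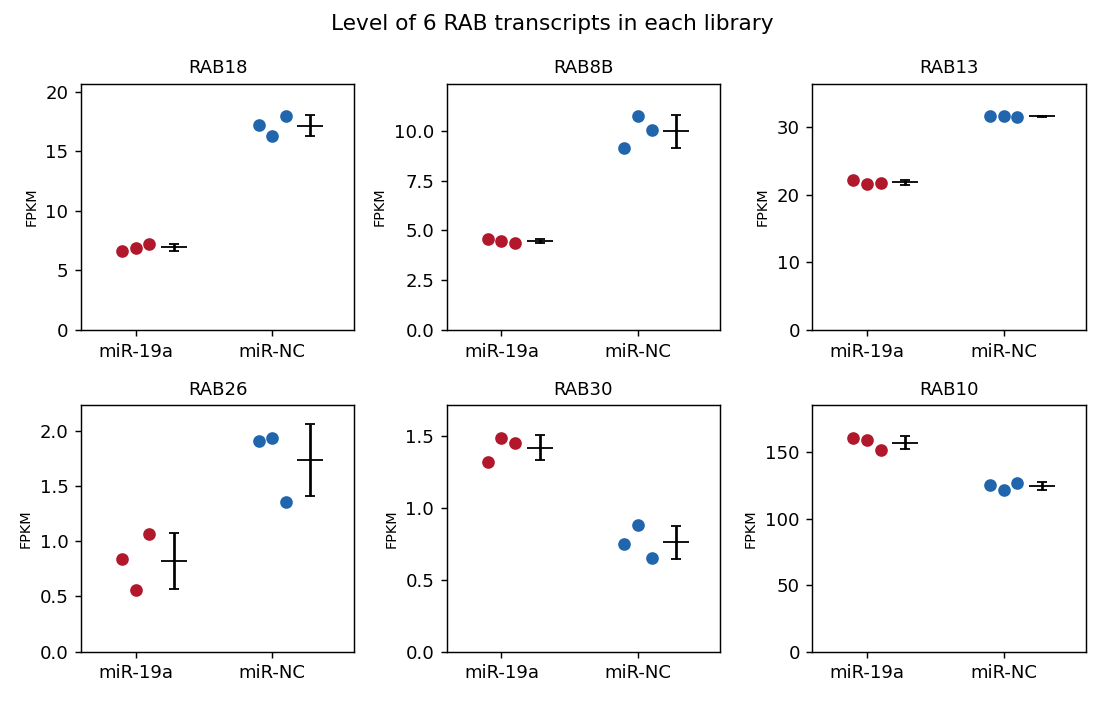
FPKM per sample (y axes, from 0) of 6 RAB transcripts in miR-19a (left in each panel) and miR-NC (right), with the mean as a line and the SD as a bar beside the 3 samples. In RAB18 the miR-19a samples lie between 6.67 and 7.22 FPKM and the miR-NC samples between 16.3 and 18.0 FPKM, while RAB10 and RAB30 are higher in every miR-19a sample.

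In the early endosome group, 2 of 7 rose, 2 fell and 3 did not pass. The RAB5 proteins drive fusion of early endosomes, and RAB5C was the most abundant of the 3 transcripts. It had 49.5, 49.4 and 54.0 FPKM in miR-19a, against 66.1, 66.7 and 66.2 FPKM in miR-NC. RAB5C fell by 0.36 (SE 0.042, adjusted p = 2.3e-11). It holds no site in the 116 nt 3′ UTR of the transcript used or in its longest annotated 3′ UTR, of 807 nt. Its coding sequence holds a 7-nt match. The fall of RAB5C was the largest among those of the 42 RABs with no 3′ UTR site of 7 nt or more.

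RAB5A had 18.5 ± 0.959 FPKM in miR-19a and 17.4 ± 0.621 FPKM in miR-NC. Its samples overlapped in FPKM, at 17.8 FPKM in miR-19a replicate 3 and 17.98 FPKM in miR-NC replicate 1. They did not overlap in counts scaled by edgeR to library size. RAB5A did not pass (0.10, SE 0.052, adjusted p = 0.0918) except without miR-19a replicate 3 (0.13, adjusted p = 0.0479). RAB5B, which holds a 7mer-m8 site, had 5.45 ± 0.384 FPKM in miR-19a and 5.88 ± 0.135 FPKM in miR-NC and did not pass either (-0.10, SE 0.073, adjusted p = 0.292). A gene with no name in the tables used, ENSG00000237493, overlaps RAB5B on the opposite strand and fell by 0.40 on the log2 scale (adjusted p = 1.8e-04). RAB5A, whose only 3′ UTR match is a 6mer, and RAB5B, with a 7mer-m8, thus gave no call, while RAB5C, with no match there, fell. Of all tested genes with a 6mer as their strongest match 23.8% fell, and of those with no match 21.4% did.

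RAB21, which acts in the uptake of integrins, had 5.23, 5.41 and 5.23 FPKM in miR-19a, against 6.76, 6.69 and 6.99 FPKM in miR-NC. It fell by 0.35 (SE 0.061, adjusted p = 1.7e-06) and holds an 8mer and 3 7mer-A1 sites in the longest 3′ UTR of the set, 14612 nt. RAB31, which acts between the Golgi and endosomes, had 14.8, 13.8 and 12.5 FPKM in miR-19a, against 11.0, 12.0 and 11.2 FPKM in miR-NC, and rose by 0.27 (SE 0.054, adjusted p = 2.4e-05), and it holds a 7mer-A1 site. Its miR-19a samples varied more but stayed above all miR-NC samples.

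RAB22A, an early endosome RAB of recycling, had 4.68, 5.37 and 4.42 FPKM in miR-19a, against 4.17, 4.29 and 4.65 FPKM in miR-NC, with overlap. Its log2 fold change of 0.16 (SE 0.064, adjusted p = 0.0331) passed in edgeR but not in DESeq2 (adjusted p = 0.105) or limma (adjusted p = 0.231), nor when scaled by library totals alone (adjusted p = 0.0596). Leaving out miR-19a replicate 2 gave 0.07 (adjusted p = 0.411), leaving out miR-NC replicate 1 gave 0.12 (adjusted p = 0.177) and leaving out miR-NC replicate 2 gave 0.15 (adjusted p = 0.0586). RAB20, an endosome and phagosome RAB, stood at 1.26 ± 0.333 FPKM in miR-19a and 0.963 ± 0.182 FPKM in miR-NC and did not pass (0.39, SE 0.27, adjusted p = 0.242).

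Recycling endosome RABs gave 3 rises and 2 falls among 7, none as large as 0.5 on the log2 scale. RAB35, which returns cargo from endosomes to the cell surface, had 30.3, 30.4 and 29.6 FPKM in miR-19a, against 25.3, 24.6 and 24.6 FPKM in miR-NC. It rose by 0.29 (SE 0.044, adjusted p = 7.3e-08). RAB11A, the RAB of slow recycling, had 38.1 ± 0.917 FPKM in miR-19a and 33.7 ± 1.31 FPKM in miR-NC and rose by 0.19 (SE 0.040, adjusted p = 3.9e-05). Its paralog RAB11B, at 35.1 ± 0.728 FPKM in miR-19a and 35.2 ± 2.21 FPKM in miR-NC, did not pass (0.01, SE 0.049, adjusted p = 0.846).

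RAB4A and RAB4B, of fast recycling, were called in opposite directions. RAB4A, with a 7mer-A1 site, had 9.51 ± 0.299 FPKM in miR-19a and 11.1 ± 0.257 FPKM in miR-NC and fell by 0.20 (SE 0.065, adjusted p = 0.00712). RAB4B had 3.85, 4.12 and 3.54 FPKM in miR-19a, against 3.49, 2.66 and 3.40 FPKM in miR-NC, and rose by 0.28 (SE 0.10, adjusted p = 0.0163). The transcript used here holds a 7mer-m8 site that its longest annotated 3′ UTR lacks. RAB4B did not pass with DESeq2 (adjusted p = 0.0621) or limma (adjusted p = 0.0936). It also did not pass when miR-19a replicate 2 was left out (0.23, adjusted p = 0.109) or when miR-NC replicate 2 was (0.17, adjusted p = 0.193).

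RAB12, which acts in the degradation of the transferrin receptor, had 11.0 ± 0.440 FPKM in miR-19a and 13.1 ± 0.248 FPKM in miR-NC. It fell by 0.24 (SE 0.068, adjusted p = 0.00221) with no site in its 3′ UTR and a 7-nt match in its coding sequence. RAB14, which acts between the Golgi and endosomes, had 30.1 ± 1.37 FPKM in miR-19a and 28.9 ± 0.683 FPKM in miR-NC, and did not pass (0.07, SE 0.043, adjusted p = 0.153). RAB14 is the RAB with the most 7-nt matches that gave no call, since its 3′ UTR holds 3.

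The late endosome, lysosome and autophagy list gave 1 fall and no rise among 4, and that fall was RAB29, a RAB also of the Golgi. RAB7A, the main RAB of late endosomes and lysosomes, had 77.7, 75.1 and 76.5 FPKM in miR-19a, against 75.6, 76.9 and 76.2 FPKM in miR-NC. The samples interleaved, and the log2 fold change was 0.02 (SE 0.039, adjusted p = 0.718). RAB9A, which acts between late endosomes and the Golgi, and RAB24, a RAB linked to autophagy, did not pass at 0.07 (SE 0.059, adjusted p = 0.377) and 0.06 (SE 0.11, adjusted p = 0.655). RAB29, a Golgi RAB that recruits the kinase LRRK2, had 6.07 ± 0.208 FPKM in miR-19a and 7.46 ± 0.323 FPKM in miR-NC and fell by 0.28 (SE 0.073, adjusted p = 7.8e-04). It holds a 7mer-A1 site.

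RAB32 and RAB38, which act in the making of melanosomes and other lysosome-related organelles, did not pass. RAB32 had 25.0 ± 1.86 FPKM in miR-19a and 24.5 ± 1.44 FPKM in miR-NC (0.04, SE 0.070, adjusted p = 0.64). RAB38 had 1.26 ± 0.272 FPKM in miR-19a and 1.45 ± 0.356 FPKM in miR-NC (-0.19, SE 0.25, adjusted p = 0.578), and its wide error leaves a change of that size undetectable at this depth. Its log2 fold change was -0.02 without miR-19a replicate 2 or without miR-NC replicate 1, -0.30 when miR-19a replicate 1 was left out and -0.37 when miR-NC replicate 2 was.

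RAB34, a RAB of ciliogenesis and lysosome positioning, had 41.1, 41.0 and 43.3 FPKM in miR-19a, against 51.1, 50.6 and 51.5 FPKM in miR-NC. It fell by 0.27 (SE 0.041, adjusted p = 5.6e-08), and its 7mer-m8 site lies 11 nt after the stop codon of the transcript used. In its longest annotated 3′ UTR, of 963 nt, that site is at position 686. RAB23, a negative regulator of Hedgehog signalling, had 7.11, 7.58 and 7.03 FPKM in miR-19a, against 6.23, 6.11 and 6.59 FPKM in miR-NC, and rose by 0.21 (SE 0.080, adjusted p = 0.021) with an 8mer and a 7mer-m8 in its 3′ UTR.

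The call of RAB23 was lost with DESeq2 (adjusted p = 0.0657). Leaving out miR-19a replicate 2 (0.18, adjusted p = 0.103), miR-NC replicate 1 (0.20, adjusted p = 0.0671) or miR-NC replicate 2 (0.19, adjusted p = 0.0644) ended it too. BAG2 overlaps RAB23 on the opposite strand with 4697 counts to its 2086 and had a log2 fold change of 0.05 (adjusted p = 0.555). RAB28, a RAB linked to photoreceptors, had 6.49 ± 0.651 FPKM in miR-19a and 6.63 ± 0.474 FPKM in miR-NC and did not pass (-0.02, SE 0.096, adjusted p = 0.895). RAB39B, a RAB of neurons, was not tested: it was listed at 0.26, 0.18 and 0.25 FPKM in miR-19a and 0.38, 0.48 and 0.44 FPKM in miR-NC. In a fit without the filter on low values its log2 fold change was -0.86 (SE 0.33, adjusted p = 0.0418), and it holds a 7mer-A1 site.

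Abundance was uneven across the family. RAB10, RAB1A, RAB1B, RAB7A and RAB5C together made up 50.9% of the summed RAB FPKM in miR-19a and 50% in miR-NC. Among these 5, RAB10 rose, RAB1A and RAB5C fell, and RAB1B and RAB7A did not pass. The falls of RAB18 and RAB8B were in transcripts of middle abundance, and the fall of RAB26 and the rise of RAB30 were near the lower limit for testing.

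**Figure D3:**
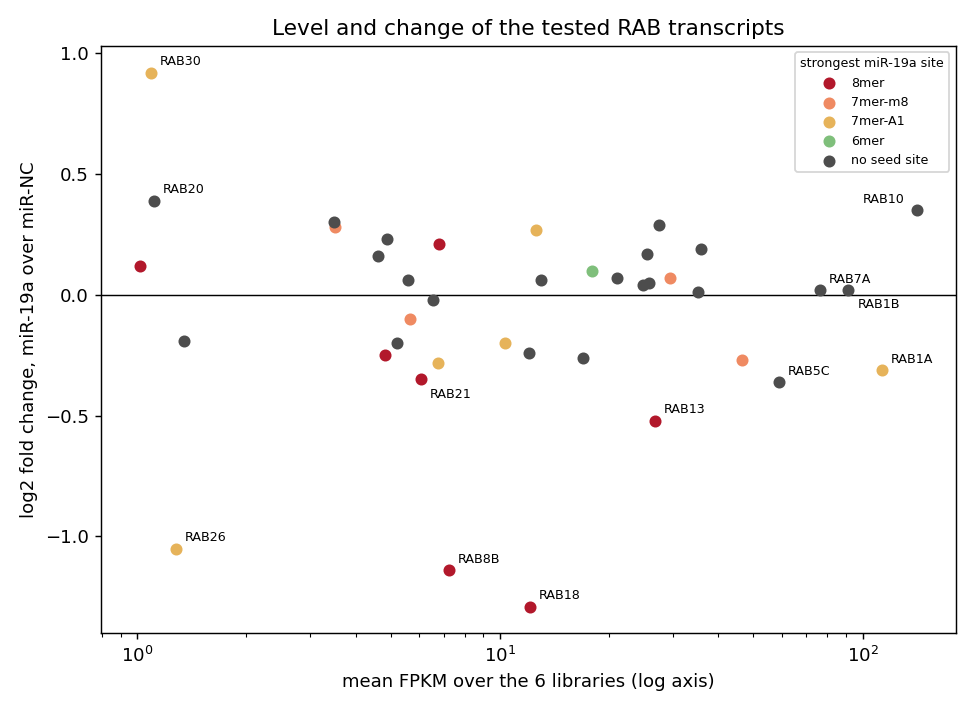
Mean FPKM over the 6 libraries (x axis, log scale) and log2 fold change (y axis, miR-19a over miR-NC) of the 40 tested RAB transcripts, coloured by the strongest miR-19a site in the 3′ UTR. The 5 points beyond 0.5 in size all hold a site of 7 nt or more, with no such share computed for all tested genes. RAB10, RAB1B and RAB7A, with no site, lie at the high end of abundance at 0.35, 0.02 and 0.02.

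Sites of 7 nt or more were found in 18 of the 42 RABs (42.9%). The share was 42.5% of the tested RABs and 18.6% of all tested genes with an annotated 3′ UTR. RAB 3′ UTRs were also longer, with a median of 2163 nt against 999 nt, and among the RABs those with a site had a median of 2894 nt and those without 1363 nt. The part of UTR length in the share of RABs with a site was not tested.

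Among the 17 tested RABs with such a site 10 fell, 4 rose and 3 did not pass, with a median log2 fold change of -0.25. Of all 1966 tested genes with such a site 39.6% fell and 21.8% rose, with a median of -0.07. Among the 23 tested RABs without such a site 4 (17.4%) fell and 7 (30.4%) rose, with a median of 0.06. Of the 8585 tested genes without one 21.7% fell. The share that rose was 29.6% of the tested genes with no match of any class, close to that of these RABs. The 4 that fell were RAB3B, RAB5C, RAB12 and RAB27B, and RAB5C changed most at -0.36. RAB5C and RAB12 hold a coding match, and RAB3B and RAB27B do not. RAB2A, also without a 3′ UTR site, holds a coding match too and did not pass (0.05, adjusted p = 0.302). The part of coding matches in these RAB changes was not tested. The 5 RABs that passed with a change of at least 0.5 in size all held a site, including RAB30, which rose. How many of all tested genes with so large a change hold a site was not computed, so this count has no baseline. Among the tested RAB genes outside the set, only RAB39A (1.17) and RAB36 (-0.9) changed by that much, and neither holds a site.

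By class, 5 of 7 RABs with an 8mer fell and 1, RAB23, rose, with a median of -0.35, beside -0.15 and 48.4% falling for the 639 tested genes with an 8mer. The first 8mer starts 93 nt after the stop codon in RAB18, 289 nt in RAB8B, 439 nt in RAB13, 795 nt in RAB21, 1407 nt in RAB2B, 1609 nt in RAB33B and 1894 nt in RAB23. In that order the log2 fold changes were -1.29, -1.14, -0.52, -0.35, -0.25, 0.12 and 0.21. The order of distance and the order of change were thus the same in these 7 genes, which is a description with no test. Over all tested genes, those whose first 8mer lay within 500 nt of the stop codon had a median of -0.36 (198 genes, 68.7% falling). Those with a farther first 8mer had a median of -0.07 (441 genes, 39.2% falling). The limit of 500 nt was chosen after the RAB values were seen, and these RABs are among the genes it divides. UTR length and the number of sites were not accounted for. The part of distance in the RAB changes was not tested.

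Of the 6 tested RABs with a 7mer-A1 as their strongest site, RAB26, RAB1A, RAB29 and RAB4A fell and RAB30 and RAB31 rose. Of all tested genes of that class 32.8% fell and 26.2% rose. Of the 4 with a 7mer-m8, RAB34 fell, RAB4B rose, and RAB5B and RAB14 did not pass. Of all tested genes of that class 37.3% fell and 23.8% rose.

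**Figure D4:**
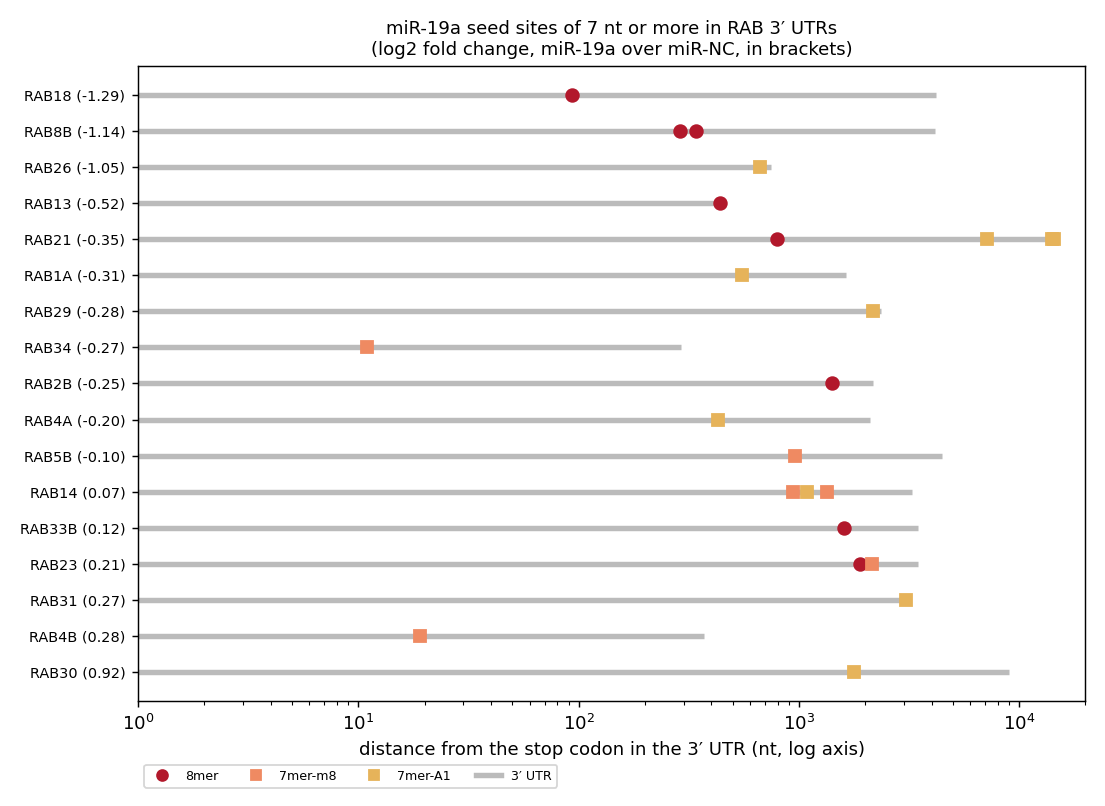
Positions of miR-19a seed sites of 7 nt or more along the annotated 3′ UTR (grey, x axis is the distance from the stop codon in nt on a log scale) of the 17 tested RABs that hold one, ordered by log2 fold change (in brackets). The 8mers of RAB18, RAB8B and RAB13 start 93 to 439 nt after the stop codon, and those of RAB33B and RAB23, which did not fall, start at 1609 and 1894 nt.

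Because paralogs share functions, their relative amounts were compared in 12 pairs by the log2 ratio of counts in each sample. The ratios of miR-19a and miR-NC did not overlap in 9 of the 12 pairs, each with an exact two-sided permutation p of 0.1, the smallest possible, and 0.133 after Benjamini-Hochberg adjustment over the 12 pairs, so none passed. For single tested genes the share without overlap was 54.0%, as above, but a ratio between genes is another measure. No share was computed for ratios of other gene pairs, and the RAB5 pairs share genes with each other. The largest shift was in RAB8A to RAB8B, at 1.55 ± 0.03 in miR-19a and 0.36 ± 0.12 in miR-NC, a difference of 1.2. RAB8B was 25.3% ± 0.376 of the summed RAB8 FPKM in miR-19a and 43.8% ± 2.07 in miR-NC, and the sum was 17.6 ± 0.192 FPKM in miR-19a and 22.8 ± 1.14 FPKM in miR-NC.

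The RAB27A to RAB27B ratio was -2.40 ± 0.13 in miR-19a and -2.96 ± 0.10 in miR-NC. RAB27A made up 20.1% ± 1.44 of the summed RAB27 FPKM in miR-19a and 14.6% ± 0.909 in miR-NC, so RAB27B remained the main transcript in every sample. For RAB4A to RAB4B the ratio was 1.06 ± 0.10 in miR-19a and 1.55 ± 0.23 in miR-NC, and for RAB3B to RAB3D it was 1.41 ± 0.09 in miR-19a and 1.86 ± 0.16 in miR-NC. In each of these pairs the 2 paralogs had been called in opposite directions.

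In the RAB5 family, RAB5A to RAB5C stood at -0.99 ± 0.13 in miR-19a and -1.46 ± 0.06 in miR-NC. RAB5A was 24.7% ± 1.68 of the summed RAB5 FPKM in miR-19a and 19.4% ± 0.637 in miR-NC, and RAB5C was 68.0% ± 1.83 in miR-19a and 74.0% ± 0.555 in miR-NC. RAB5C was thus the main RAB5 transcript in both groups. RAB1A to RAB1B was 0.70 ± 0.11 in miR-19a and 1.02 ± 0.04 in miR-NC, a difference of -0.32. The pairs that overlapped were RAB5A to RAB5B (exact p = 0.2, adjusted 0.24), RAB22A to RAB31 (exact p = 0.4, adjusted 0.436) and RAB32 to RAB38 (exact p = 0.5, adjusted 0.5).

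**Figure D5:**
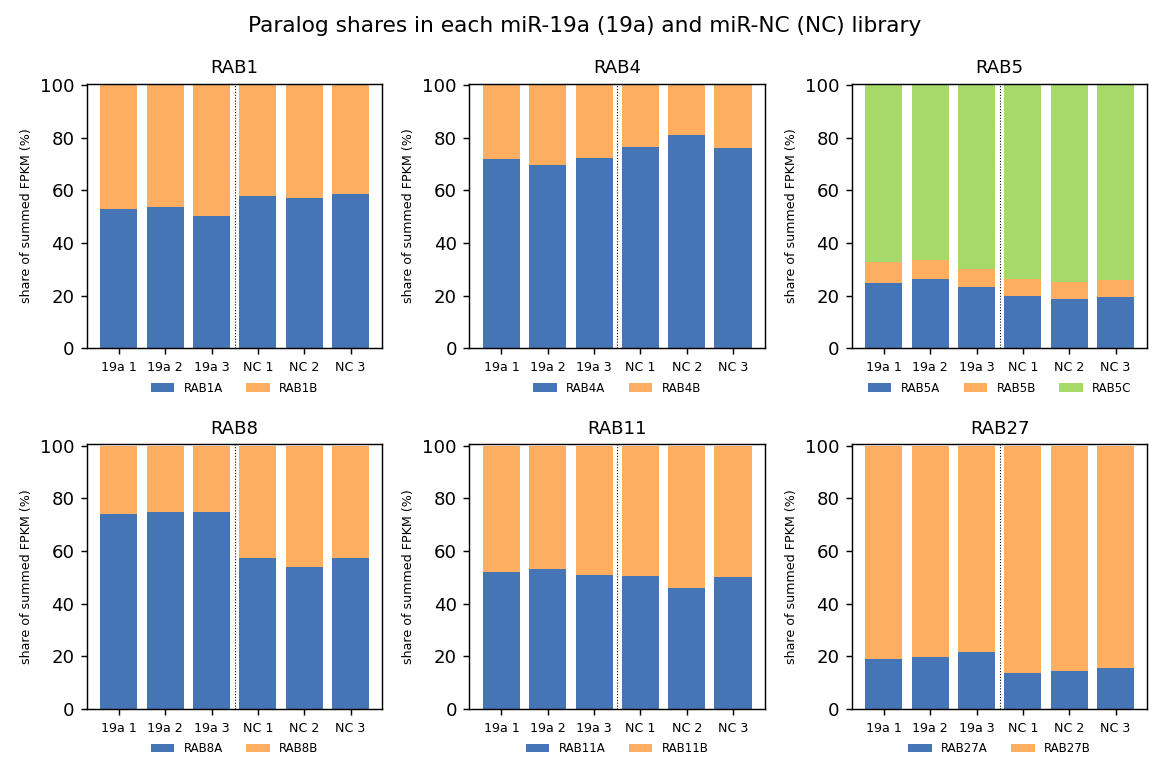
Share of the summed FPKM (y axes, percent) taken by each paralog of 6 RAB families in each of the 3 miR-19a samples (left of the dotted line) and the 3 miR-NC samples. RAB8B takes 25.1% to 25.8% in miR-19a and 42.6% to 46.2% in miR-NC.

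The RAB machinery was read from a list of 128 regulators and effectors, of which 108 were tested. Among these 28 rose and 33 fell, so 56.5% passed, against 48.4% of all tested genes, and the median log2 fold change was -0.02. Of the 14 tested regulators and effectors with an 8mer, 10 fell and 1 rose, where 48.4% of all 639 tested genes with an 8mer fell and 15.5% rose. With a mean of at least 5 FPKM required, 58 were tested, of which 15 rose and 21 fell.

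Among 8 tested genes of prenylation and recycling, 2 rose and none fell, where 24.9% of all tested genes rose and 23.5% fell. CHML, an escort protein that presents RABs for prenylation, had 13.4 ± 0.540 FPKM in miR-19a and 9.47 ± 0.557 FPKM in miR-NC (log2 fold change 0.52, SE 0.050, adjusted p = 4.7e-14). RABGGTA, the alpha subunit of the prenylating enzyme, rose by 0.28 (SE 0.073, adjusted p = 8.3e-04).

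Of 29 tested exchange factors 7 rose and 10 fell. RIN2, an exchange factor for RAB5, had 6.22 ± 0.0351 FPKM in miR-19a and 11.3 ± 0.631 FPKM in miR-NC. It fell by 0.85 (SE 0.061, adjusted p = 1.5e-19), the largest fall of the list, and holds an 8mer. SBF2, with a DENN domain, fell by 0.49 (SE 0.059, adjusted p = 1.3e-10) and MADD, an exchange factor for RAB3 and RAB27, fell by 0.39 (SE 0.058, adjusted p = 5.0e-08), each with an 8mer. DENND5B rose by 0.43 (SE 0.048, adjusted p = 1.6e-11). RIC1, part of an exchange factor for RAB6, rose by 0.30 (SE 0.060, adjusted p = 2.0e-05). DENND2B, an exchange factor for RAB13, rose by 0.38 (SE 0.086, adjusted p = 1.7e-04). Matches of 7 nt or more in the coding sequence were found in DENND5B, RIC1 and DENND2B, which rose, and in RIN2 and SBF2, which fell. The part of coding matches in these changes was not tested.

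Of 30 tested TBC-domain and RAB3GAP proteins 7 rose and 9 fell. RABGAP1, which holds an 8mer, had 4.51 ± 0.0551 FPKM in miR-19a and 7.13 ± 0.248 FPKM in miR-NC and fell by 0.65 (SE 0.058, adjusted p = 3.3e-15). TBC1D2, which acts on RAB7A, fell by 0.69 (SE 0.079, adjusted p = 2.7e-11) and TBC1D8 by 0.48 (SE 0.049, adjusted p = 6.6e-13), both with no 3′ UTR site, and TBC1D8 holds a 7-nt match in its coding sequence. TBC1D20, which acts on RAB1, rose by 0.27 (SE 0.046, adjusted p = 1.8e-06), TBC1D9 by 0.31 (SE 0.082, adjusted p = 0.001) and TBC1D10A, which acts on RAB27A and RAB35, by 0.38 (SE 0.10, adjusted p = 0.00123).

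Of 38 tested effectors 12 rose and 12 fell. OPTN (optineurin), which binds RAB8, had 23.6 ± 0.838 FPKM in miR-19a and 14.9 ± 0.748 FPKM in miR-NC and rose by 0.68 (SE 0.047, adjusted p = 4.5e-20). MICALL1, of recycling endosomes, rose by 0.60 (SE 0.061, adjusted p = 3.2e-13). Effectors of RAB27 went both ways: SYTL2 rose by 0.56 (SE 0.079, adjusted p = 1.0e-08), while UNC13D fell by 0.54 (SE 0.065, adjusted p = 1.1e-10) and MLPH, which links RAB27A to myosin Va, by 0.22 (SE 0.040, adjusted p = 4.5e-06). OCRL, a phosphoinositide phosphatase that binds several RABs, fell by 0.48 (SE 0.051, adjusted p = 1.7e-12) and holds 7mer-m8 sites.

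Among the enzymes that set RAB phosphorylation, LRRK1, a kinase of RAB7A, had 4.04 ± 0.257 FPKM in miR-19a and 5.86 ± 0.160 FPKM in miR-NC. It fell by 0.53 (SE 0.059, adjusted p = 1.4e-11) and holds an 8mer. PPM1H, a phosphatase of RAB8A and RAB10, fell by 0.24 (SE 0.084, adjusted p = 0.0138), and LRRK2 did not pass (-0.07, SE 0.078, adjusted p = 0.475).

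The table held 21 further RAB genes outside the set, of which 6 were tested. RAB39A, a RAB of late endosomes, had 1.24, 1.43 and 1.49 FPKM in miR-19a, against 0.56, 0.51 and 0.80 FPKM in miR-NC, and rose by 1.17 (SE 0.27, adjusted p = 1.7e-04). RAB36 had 0.95, 0.98 and 1.02 FPKM in miR-19a, against 1.84, 2.04 and 1.68 FPKM in miR-NC, and fell by 0.90 (SE 0.15, adjusted p = 9.1e-07). Both were low and neither holds a site. RAB40B fell by 0.32 (SE 0.12, adjusted p = 0.0223), and RAB15, RAB37 and RAB40C did not pass at 0.11, 0.24 and 0.00. RAB15 holds an 8mer and had 11.1 ± 0.360 FPKM in miR-19a and 10.4 ± 0.190 FPKM in miR-NC (adjusted p = 0.119).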

How the data were processed

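Poly(A)-selected RNA of 6 samples was sequenced as paired reads, per the labels' protocols, and the submitters' processing notes name bcl2fastq 2.17.1.14. Not given in the sources used here were aligner, counter, strand setting, annotation and build. Per the file headers, the deposited values are whole-number counts, which are not normalized, and the authors' FPKM, which are scaled by gene length and library total and rounded, for 57905 genes. A gene name table gave symbols for 51996 of them and GENCODE v29 for 342 more.

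Counts were tested with edgeR 4.0.16 (R 4.3.3; TMM factors, quasi-likelihood test, two-sided, Benjamini-Hochberg over the 12452 genes averaging at least 1 FPKM, threshold 0.05). The SE was the size of the log2 fold change divided by the square root of the F statistic. The common biological coefficient of variation was 0.0352. The fit was tested on simulated data. Every pair of libraries within a group differed by more than sampling noise (chi-square per gene 1.60 to 4.19), and pairs across groups lay between 26.9 and 30.5. Paralog ratios used counts plus 0.5. 3′ UTRs and sites came from GENCODE v29 transcripts on GRCh38, and 19133 genes had a 3′ UTR. The members, compartments, regulator lists, pairs and markers were chosen with earlier results of these data known. All 42 RABs are named, as are the other RABs tested and, for each class of regulators, up to 3 that rose and 3 that fell with the smallest adjusted p. Of 3 endothelial markers, 1 matched no symbol. Alternatives were RLE factors, library totals, DESeq2 1.42.0, limma 3.58.1 on log2(FPKM + 1) or log2(FPKM + 0.1), other filters, a replicate block, leaving out each library, FPKM ratios, the longest 3′ UTR and 6mers. Other steps ran in Python 3.11.15 with pandas 2.3.3, scipy 1.17.1 and numpy 2.4.6.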

Additional observations from a re-analysis of the deposited data

How the results depend on the processing

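Of the 25 RABs that passed the test, 19 passed under every one of the 15 alternatives that tested them, and of the 15 that did not pass, 14 passed under none of them. The other calls, those of RAB2B, RAB3D, RAB4B, RAB22A, RAB23, RAB27A and RAB5A, are given with their values above. The number of RABs that rose, 11, was 7 with DESeq2, 7 with limma at either pseudocount, and 6 with a mean of at least 5 FPKM, where 30 RABs were tested; without 1 library it lay between 7 and 12, at 7 when miR-19a replicate 2 or miR-NC replicate 1 was left out. The number that fell, 14, lay between 13 and 14 without 1 library. Regulators and effectors that rose and fell numbered 15 and 21 at the filter of 5 FPKM, where fewer genes were tested, and 25 to 30 and 29 to 35 without 1 library. For the other changes the cause was not tested. All-gene calls, 6023, lay between 5305 and 5795 without 1 library, and were 5186 with DESeq2.

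With the replicate number as a block, 5986 genes passed, 11 RABs rose and 14 fell, 27 regulators and effectors rose and 33 fell, and the RAB median was 0.032. Whether these numbers pair the samples is not stated in the labels. Deviations of same-numbered samples correlated at -0.0369 to 0.0094, and those of differently numbered samples at -0.0234 to 0.0268. With 3 samples per group these values cannot decide whether same-numbered samples were prepared together.

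Signs turned in 4 RABs that did not pass. RAB11B was -0.003 with library totals and -0.001 with limma at both pseudocounts, and lay between -0.02 and 0.07 without 1 library. RAB28 lay between -0.10 and 0.03, RAB32 between -0.007 and 0.10 and RAB1B between -0.03 and 0.05 without 1 library. Pairs without overlap numbered 9 to 10 without 1 library. With the longest 3′ UTR 17 RABs held a site, and with 6mers counted 19 did. Depth limits RAB20, RAB26, RAB33B and RAB38, whose errors were the widest.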
